A study of Homo sapiens with 6 samples.

Results

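The mitochondrial ribosome is built from RNA made inside the mitochondrion and from proteins encoded in the nucleus, and the genes of these proteins are described here. The 78 members were all protein-coding rows of the count table whose symbol is MRPL (large subunit) or MRPS (small subunit) followed by a number, with A, B or C allowed after it, out of 27264 gene rows. Another 21 rows with MRPL or MRPS symbols, which are pseudogenes, antisense genes and divergent transcripts, were left out. By their known place in the ribosome 51 members belong to the large subunit and 26 to the small subunit. A counterpart in bacterial ribosomes was assigned to 47, and of the MRPS18 genes to MRPS18A and MRPS18C but not to MRPS18B. MRPS36 belongs to neither subunit, since its product is known as a component of the 2-oxoglutarate dehydrogenase complex. The symbols also mislead for MRPS30 and MRPS18A, whose products sit in the large subunit and were counted there.

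The measurements are messenger RNA counts from 6 libraries of the human colorectal cancer line DLD-1, in a series whose title concerns an epithelial-to-mesenchymal transition (EMT) mediated by ZEB2, a zinc finger repressor of epithelial genes. The group without DOX held clones WT2, WT5 and WT37, all with the genotype ZEB2 WT and called epithelial, and the group with DOX held the same 3 clones with the same genotype and called mesenchymal. The names of all 6 libraries give the line as DLD.1_TR21, and TR21 is not explained in the labels used here. DOX is the usual short form of doxycycline, a tetracycline commonly used to switch on an introduced gene, and neither its dose and duration nor the promoter of the ZEB2 construct is given in the labels. Each clone gave 1 library per condition, so the 3 libraries of a group are 3 clones. In the fit without a block, p-values set the difference with DOX against the spread between these clones. With the clone as block, the level of each clone is taken out. There p-values set the change with DOX against its variation between clones. Libraries with DOX from cells without the construct were not analysed here, so an effect of doxycycline itself and an effect of ZEB2 cannot be told apart.

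Mitochondrial ribosomes translate the few proteins that mitochondrial DNA encodes, which are all subunits of the respiratory chain and of ATP synthase. Their ribosomal proteins are made in the cytosol and imported, so that their supply has to be matched to ribosomal RNA made in the mitochondrion. Doxycycline and other tetracyclines are known to bind the small subunit of bacterial ribosomes and to slow protein synthesis in mitochondria.

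Promoters of these genes are known for sites of the factors NRF1, the ETS family (GABP) and YY1. Promoter stretches with letter strings marked are shown here for 4 of the 6 members whose levels with DOX all lay below those without it (MRPL14, MRPL20, MRPL36 and MRPL52). They are also shown for 2 of the 4 members that differed between clones (MRPS16 and MRPL51). Of those not printed, the same stretch of MRPL44 holds 2 SP1 strings, that of MRPL11 1 ZEB string and those of MRPL49 and MRPS18C none. These 4 stretches, like the printed one of MRPL14, hold no NRF1, ETS or YY1 string. The longer promoters of 300 bases counted below differ, with an NRF1 string in MRPL14, ETS and MYC strings in MRPS18C and SP1 and MYC strings in MRPL49. Each line runs from 120 bases before to 30 bases after the RefSeq start of the gene, 5′ to 3′ on the strand of the gene, on GRCh38.p14. Capitals mark any of 6 letter strings found on either strand, which are GCGCA and GCGC with any 1 base between them (NRF1), CCGGAAG (ETS), AAGATGGCG (YY1), GGGCGG (SP1), CACGTG (MYC) and CACCTG (the E-box bound by ZEB proteins). The positions are chr6:44127279-44127428 (minus strand) for MRPL14, chr1:1407264-1407413 (minus) for MRPL20, chr5:1799808-1799957 (minus) for MRPL36, chr14:22829767-22829916 (plus) for MRPL52, chr10:73252615-73252764 (minus) for MRPS16 and chr12:6493233-6493382 (minus) for MRPL51.
MRPL14: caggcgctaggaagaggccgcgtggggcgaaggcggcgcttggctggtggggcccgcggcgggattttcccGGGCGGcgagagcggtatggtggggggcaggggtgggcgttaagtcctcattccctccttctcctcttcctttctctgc
MRPL20: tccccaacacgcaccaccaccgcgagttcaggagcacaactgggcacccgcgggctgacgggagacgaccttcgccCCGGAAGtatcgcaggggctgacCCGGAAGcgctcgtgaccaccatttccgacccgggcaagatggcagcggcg
MRPL36: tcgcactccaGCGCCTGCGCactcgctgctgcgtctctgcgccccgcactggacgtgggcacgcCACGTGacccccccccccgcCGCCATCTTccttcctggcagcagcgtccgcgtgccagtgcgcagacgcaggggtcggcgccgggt
MRPL52: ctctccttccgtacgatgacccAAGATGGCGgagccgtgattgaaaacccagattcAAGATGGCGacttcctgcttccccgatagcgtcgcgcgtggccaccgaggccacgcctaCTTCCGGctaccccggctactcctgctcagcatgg
MRPS16: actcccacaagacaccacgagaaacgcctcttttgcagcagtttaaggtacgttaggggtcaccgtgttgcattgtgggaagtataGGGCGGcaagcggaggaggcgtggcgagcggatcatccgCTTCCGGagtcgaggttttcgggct
MRPL51: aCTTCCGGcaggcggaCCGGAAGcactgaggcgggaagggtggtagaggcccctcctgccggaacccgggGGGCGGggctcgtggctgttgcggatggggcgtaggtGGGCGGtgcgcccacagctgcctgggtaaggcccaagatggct
The stretch of MRPL14 holds 1 SP1 string, that of MRPL20 holds 2 ETS strings and that of MRPL52 holds 1 ETS and 2 YY1 strings. MRPL36 has 1 string each of NRF1, MYC and YY1. MRPS16 has 1 ETS and 1 SP1 string, and MRPL51 has 2 of each. A match is a description of the letters and not a shown binding site.

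RefSeq promoters of 300 bases (250 before and 50 after the start) were matched to 69 of the 78 members. Each member counts with 1 promoter. The shares of tested genes and of all are over promoter entries (12884 for the tested genes), where a gene can have several. The ETS string was in 29 of these promoters (42.0%), against 17.8% of the promoters of the genes tested here and 10.3% of all 35116 promoters. The YY1 string was in 13 members (18.8%), against 3.70% and 1.75%. The NRF1 string was in 8 members (11.6%), close to the 10.5% of tested genes and above the 5.78% of all promoters. The MYC string was in 6 members (8.70%, against 9.45% of tested genes and 7.26% of all), the SP1 string in 42 (60.9%, against 67.2% and 44.95%) and the ZEB E-box in 13 (18.8%, against 18.5% and 20.6%). At least 1 of the NRF1, ETS and YY1 strings was in 43 of the 69 members, and 28.5% of the promoters of tested genes held one. Strings of ETS and SP1 shared bases in 1 member and strings of SP1 and ZEB in 1, and the other pairs of strings shared none.

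Reads were counted at transcript ends, so the count of a gene does not grow with its length, and levels are given as CPM, the count scaled to a common total of reads in genes. Reads in genes numbered 5440093 to 7164426 per library. Of the 78 members, 74 had enough reads to be tested. Their mean level ran from 6.21 CPM for MRPL23, whose product lies at the exit tunnel of the large subunit, over a median of 85.0 CPM to 418 CPM for MRPS18B, a small subunit protein. The 4 highest of the large subunit were MRPL3 (325 CPM), MRPL41 (268), MRPL17 (252) and MRPL51 (246), and after MRPS18B the highest of the small subunit were MRPS34 (265), MRPS27 (219) and MRPS2 (217). At the low end of the tested members stood MRPL9, MRPL49 and MRPL44 in the large subunit and MRPS11, MRPS18C and MRPS28 in the small subunit. The plot of levels by library shows that the order of the members spans nearly 2 decades while the 6 libraries of a member lie close together.

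**Figure D1:**
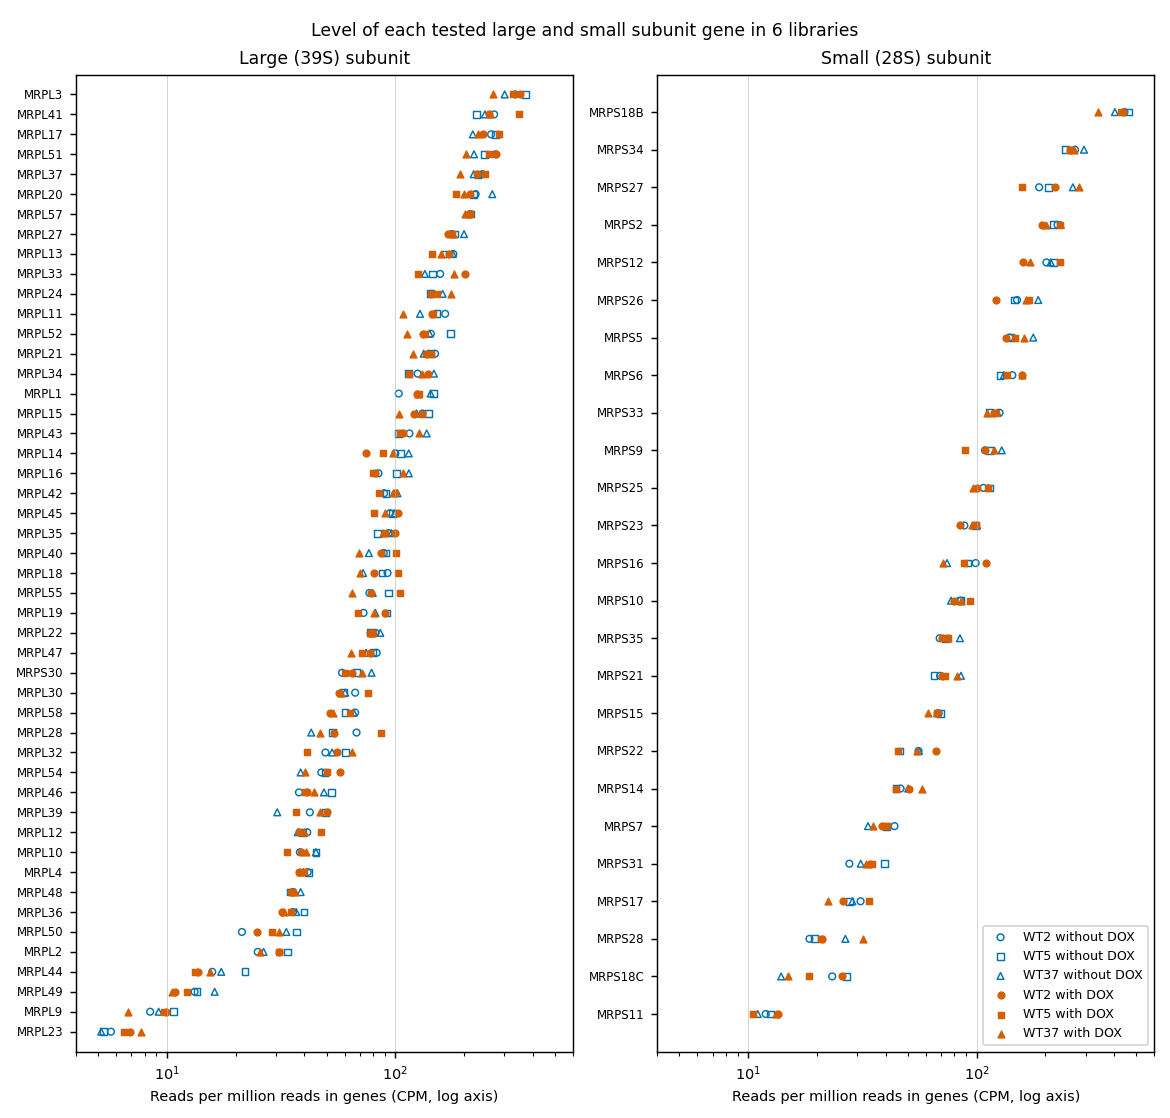
Level of each tested member of the large subunit (left, 48 genes) and small subunit (right, 25 genes) in CPM, on a log axis, with 1 point per library (open blue, without DOX; filled orange, with DOX; shape, clone). MRPS36 is not drawn. Genes are ordered by mean level, from 6.21 CPM (MRPL23) to 418 CPM (MRPS18B), and the points of both conditions overlap for most of them.

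The 4 members too low to test had at most 7 reads in any library. MRPL38 had 2 to 4 reads per library, MRPL53 had 1 to 4, MRPS24 had 0 to 7 and MRPS18A had 0 to 4. In the annotation, over 90% of the last 500 transcript bases of MRPL38, MRPL53 and MRPS24 are shared with another gene on the same strand (AC087289.3, CCDC142 and the readthrough gene URGCP-MRPS24), and those of MRPS18A with RSPH9 on the opposite strand. Reads that fell in more than 1 gene were set aside in the table as ambiguous, 6.85% to 7.40% of each library. MRPL46 is overlapped to the same extent on its own strand and had 44.1 CPM, and MRPS18C and MRPS25 are overlapped on the opposite strand and had 20.6 and 107 CPM. The 58 members whose ends overlap no other exon had a median of 94.2 CPM. Levels of these overlapped members are therefore uncertain, and the strand setting of the counting is not known.

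In the order WT2, WT5 and WT37, which later triplets of values follow, all members together took 7.98, 8.06 and 8.10 of every 1000 reads without DOX. With DOX they took 7.86, 7.93 and 7.57. The summed level was lower with DOX in each clone, by 1.58%, 1.63% and 6.57%, and the group means were 8.05 ± 0.0593 and 7.78 ± 0.192 per 1000 (SD, n = 3 each). The 3 values without DOX lie above the 3 with it, but the spread of the group with DOX comes mainly from WT37. Large subunit genes took 1.79 and 1.82 times the reads of small subunit genes in WT2 without and with DOX and 1.82 and 1.79 times in WT5. The ratio was 1.67 and 1.68 in WT37, so it differed between clones and hardly between conditions. In bulk RNA, fewer cells of a kind and less RNA per cell cannot be told apart. Leaving the 10 most abundant genes out of the denominator gave changes of -1.85%, -1.83% and -7.16%.

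The comparison of libraries with and without DOX asks whether mitochondrial ribosomal protein genes change with the treatment. None of the 74 tested members passed. In edgeR's quasi-likelihood test of 3 against 3 libraries 0 members were called, where 0% of all 11732 genes were called (lowest adjusted p of a member = 0.693). With the clone as a replicate block 0 members were called, where 1.3% of genes were called (152 genes, 0.656% higher and 0.639% lower, with a lowest adjusted p of 0.144 for MRPL14). Blocked fits with DESeq2 and limma-voom also called 0 members, where they called 1.13% and 1.58% of genes. At an unadjusted p under 0.05 the blocked test had 4 members lower (5.41%, against 6.16% of genes) and 0 higher (against 6.71%). The 4 were MRPL14, MRPL20, MRPL44 and MRPL52, and without the block the members with an unadjusted p under 0.05 were 3 lower (4.05%, against 2.96%) and 0 higher (against 3.09%).

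The fitted changes were small and most lay below 0. The median log2 fold change of the members was -0.08 in the blocked fit and 0.01 over all genes tested, and 56 of 74 members (75.7%) lay below 0, against 48.9% of genes (56 and 48.7% without the block). Every member lay between -0.41 (MRPL44) and 0.35 (MRPL23), and 0 members went beyond 0.5 in either direction. The SD of the fold changes across members was 0.13 and the median standard error of 1 member was 0.11, so most single values cannot be told from 0. Large subunit members had a median of -0.09 with 39 of 48 below 0, and small subunit members -0.08 with 17 of 25. Members with a bacterial counterpart (median -0.08, 33 of 45 below 0) and members without one (median -0.08, 23 of 29) gave like values. The median moved to -0.12 without WT5 and to -0.04 without WT37 in the blocked fit, where 45 of 74 members lay below 0 without WT37.

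Among proteins of the large subunit, MRPL14 carries the smallest p. The protein lies on the face of the large subunit that meets the small one, where the assembly factor MALSU1 binds it (ENSG00000180992, chromosome 6, 44113454 to 44127457, minus strand). Its level was 99.998, 106 and 114 CPM without DOX and 74.7, 88.2 and 98.0 CPM with it. Each clone was lower with DOX and the highest value with DOX lay just under the lowest without it. The fitted log2 fold change was -0.34 ± 0.10 SE (edgeR with the clone block, adjusted p = 0.144). Without WT5 the blocked edgeR fit gave -0.37 and an adjusted p of 0.0474. But that fit called 743 genes (6.25%) in place of 152, and 3 of the 74 tested members.

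MRPL44, a protein with a ribonuclease III-like fold that has no counterpart in bacterial ribosomes, had the most negative fold change. Its level was 15.8, 21.97 and 17.3 CPM without DOX and 13.6, 13.3 and 15.4 CPM with DOX, from 85 to 133 reads per library. The groups did not overlap, and the difference was mostly that of WT5. The fitted log2 fold change was -0.41 ± 0.17 SE (edgeR with the clone block, adjusted p = 0.324), and it was -0.24 without WT5. In the annotation 45% of its transcript end lies opposite an exon of AC073641.1.

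MRPL52, MRPL20, MRPL49 and MRPL36 also had all 3 levels with DOX below all 3 without. MRPL20, known in bacteria as an early binder of the large ribosomal RNA, had 225, 220 and 266 CPM without DOX and 213, 184 and 201 CPM with DOX. Here WT37 gave the largest step and WT2 the smallest. The fitted log2 fold change of MRPL20 was -0.28 ± 0.10 SE (edgeR with the clone block, adjusted p = 0.216), and it was -0.18 without WT37. MRPL52, a protein of the large subunit that bacteria lack, had 143, 175 and 141 CPM without DOX and 132, 134 and 113 CPM with it. Its fold change was -0.31 ± 0.10 SE with an adjusted p of 0.170 in the same edgeR fit. MRPL49, with 10.5 to 16.2 CPM, had a fold change of -0.39, and MRPL36, the smallest protein of the large subunit in bacteria, had 31.9 to 39.8 CPM and a fold change of -0.21. MRPL49 gave -0.22 without WT37.

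Levels with DOX lay wholly below those without in 6 members, the ones above (8.11% of 74, against 4.56% of genes), and wholly above in 1, MRPL23 (1.35%, against 6.55%). MRPL23 had 5.70, 5.29 and 5.16 CPM without DOX and 6.90, 6.504 and 7.72 CPM with DOX. All 3 clones were higher with DOX, but the gene had only 31 to 55 reads per library. Its fitted log2 fold change was 0.35 ± 0.23 SE (edgeR with the clone block, adjusted p = 0.556). In CPM, 17 members were lower with DOX in all 3 clones (23%, against 13.8% of genes) and 4 were higher in all 3 (5.41%, against 21.3%). After TMM scaling, which evens out library composition, these were 19 (25.7%, against 17.4%) and 3 (4.05%, against 17.7%). Of the 17, 14 belong to the large subunit and 3 (MRPS15, MRPS18B and MRPS25) to the small subunit.

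The proteins with a role in decoding and release gave values that differed between clones. MRPS12 lies at the decoding centre of the small subunit and had 202, 217 and 211 CPM without DOX and 159, 231 and 172 CPM with it. WT2 and WT37 were lower with DOX and WT5 was slightly higher, so the groups overlapped. Its log2 fold change was -0.22 ± 0.11 SE (edgeR with the clone block, adjusted p = 0.420), and -0.37 with an adjusted p of 0.0272 without WT5. The fit without WT5 leaves out the clone that went the other way. It called 3 of 74 members, where 6.25% of all genes were called. MRPL58, a peptidyl-tRNA hydrolase that rescues stalled ribosomes, had 66.7, 60.3 and 65.7 CPM without DOX and 51.8, 63.5 and 53.4 CPM with DOX. It shows the same split, lower in WT2 and WT37 and not in WT5, with a fold change of -0.23, and of -0.39 without WT5.

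Among the other positive values, MRPL41 (0.17) and MRPL28 (0.14), both of the large subunit, rested on WT5. MRPL41 had 271, 227 and 247 CPM without DOX and 256, 348 and 260 CPM with DOX, and the fold change was -0.05 without WT5. MRPL28 had 67.6, 53.0 and 42.9 CPM without DOX and 54.1, 86.3 and 47.0 CPM with it, so WT2 and WT5 lay on opposite sides. MRPS6, the small subunit counterpart of bacterial S6, was higher with DOX in all 3 clones (143, 127 and 132 CPM without, 158, 136 and 158 CPM with, fold change 0.13). MRPS28, the small subunit counterpart of bacterial S1, had 18.6 to 31.7 CPM and a fold change of 0.14. MRPL33 (0.15) was higher in WT2 and WT37 and lower in WT5, and without WT5 it reached 0.34 with an adjusted p of 0.0435 in the blocked edgeR fit. That fit again leaves out the clone that went the other way, and it called 6.25% of all genes. MRPL12, which forms the flexible stalk of the large subunit and also binds the mitochondrial RNA polymerase, had 37.4 to 47.2 CPM and a fold change of 0.05.

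**Figure D2:**
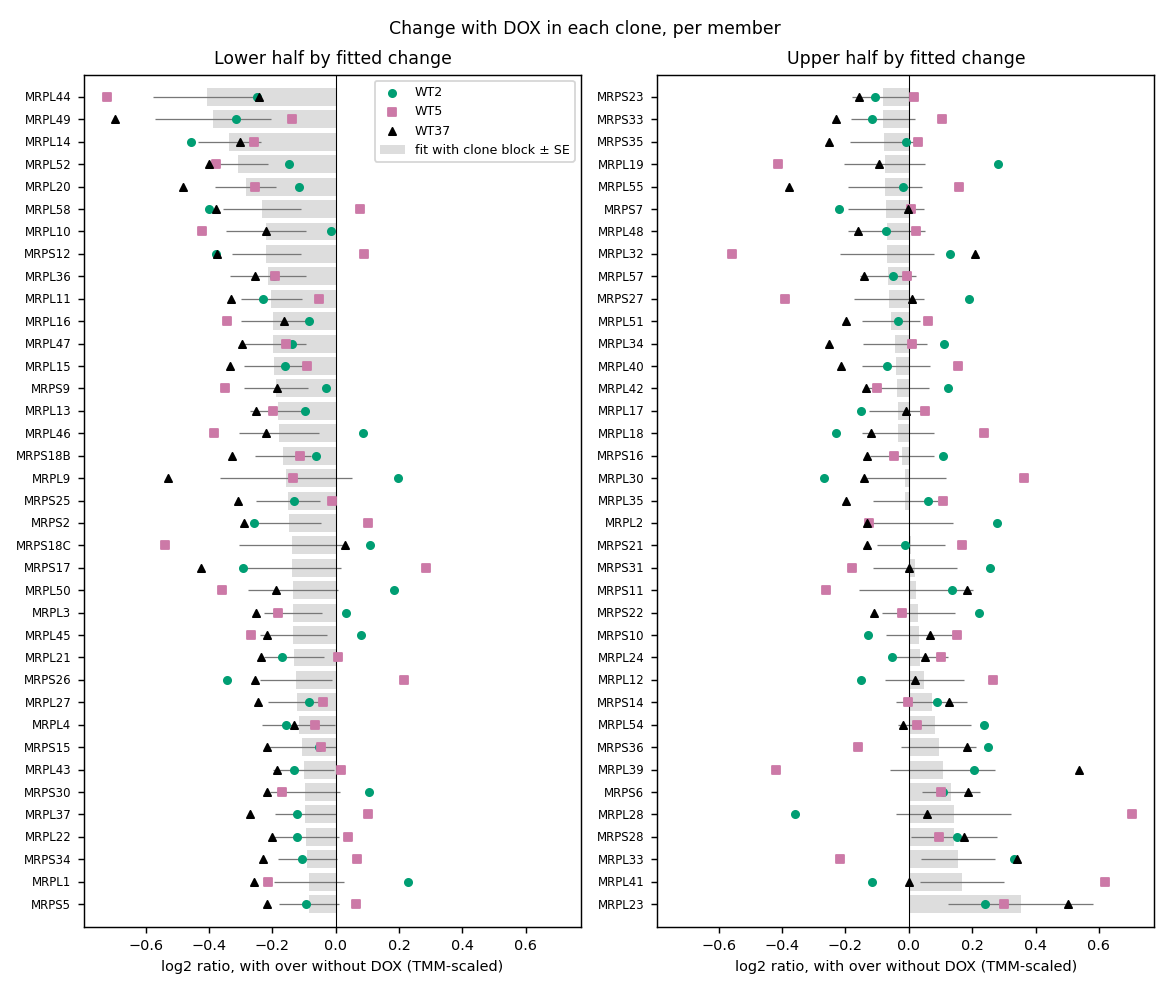
Log2 ratio of the level with over without DOX for each of the 74 tested members, TMM-scaled, in clones WT2, WT5 and WT37 (points, 1 pair of libraries each) and in the fit with the clone as block (grey bars with standard error). The left panel holds the 37 most negative fitted values, from -0.41 (MRPL44), and the right panel the rest, up to 0.35 (MRPL23). The points of 1 member often lie on both sides of 0.

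Within single clones there is 1 library per condition, so no test was made, and 95% exact intervals that cover counting error only are used as a guide. In CPM the median log2 ratio of the members was lowest in WT37 (-0.12, against 0.08 over all genes). WT2 had -0.03, against 0.04, and WT5 had -0.02, against a value within 0.01 of 0. The interval lay below 0 for 10 members in WT2 (13.5%, against 11% of genes) and above 0 for 9 (12.2%, against 15%). In WT5 it lay below 0 for 20 (27%, against 14.8%) and above 0 for 6 (8.11%, against 14.7%), and in WT37 below 0 for 27 (36.5%, against 14%) and above 0 for 6 (8.11%, against 24.4%). In 11 members (14.9%, against 8.72% of genes) it lay above 0 in one clone and below 0 in another. The width of the interval depends on the level, which had a median of 85.0 CPM over the tested members and 23.6 CPM over all genes tested. The clones did not order the members alike. Across the 74 members the ratios of WT2 and WT37 had a Pearson r of 0.50, those of WT2 and WT5 of -0.35 and those of WT5 and WT37 of 0.03, against 0.45, 0.06 and 0.16 across all genes. Genes are not independent replicates and share the same 6 libraries, so these values describe the libraries only.

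The GC content of the last 300 transcript bases moved with these ratios. Over the 74 members, Spearman's rho between GC content and the log2 ratio in CPM was -0.35, 0.44 and -0.14 in the 3 clones, against -0.12, 0.25 and -0.15 over 11680 genes. The 14 members with less than 35% GC had a median ratio of 0.18 in WT2 and -0.18 in WT5, and the 14 members with 50% or more had -0.08 in WT2 and 0.10 in WT5. In WT37 the medians were -0.12 and -0.10. Of the 6 members with the highest fold changes, MRPL23 (70.3%), MRPL41 (61%) and MRPL28 (50.3%) lie above the median GC content of the tested members, 42.3%, and MRPS6 (39.7%), MRPL33 (36.3%) and MRPS28 (31%) lie below it. With an offset that removes each library's trend along GC content, the median of the members was -0.09 in the blocked fit, 58 of 74 lay below 0 and 0 were called. In that fit MRPL23 went from 0.35 to 0.24, MRPL41 from 0.17 to 0.12, MRPL54 from 0.08 to 0.02 and MRPL12 from 0.05 to -0.05, while MRPL14 (-0.33), MRPL20 (-0.28), MRPL44 (-0.40) and MRPL52 (-0.30) stayed within 0.01 of their values.

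**Figure D3:**
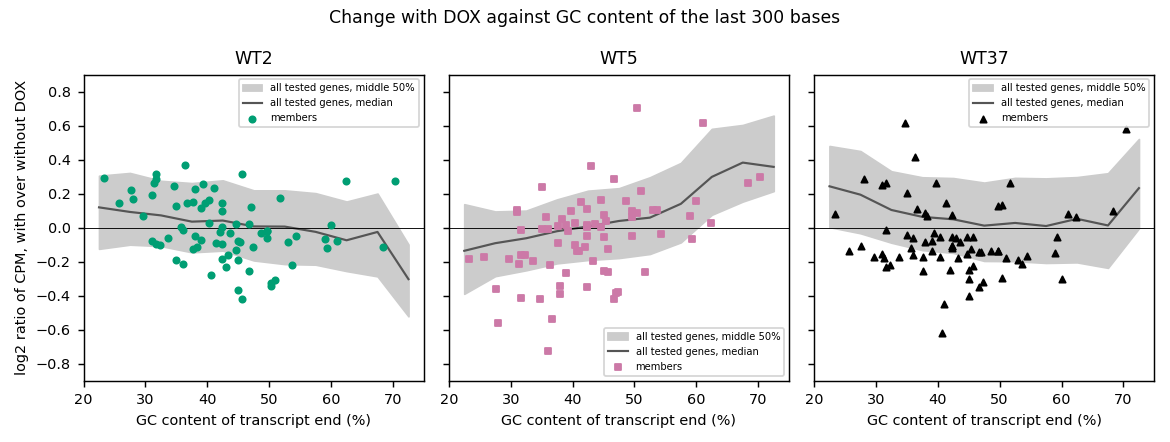
Log2 ratio of CPM with over without DOX against the GC content of the last 300 transcript bases, for the tested members (points) in clones WT2, WT5 and WT37. The grey band and line give the middle 50% and the median of all tested genes in steps of GC content. Members with under 35% GC have a median of 0.18 in WT2 and -0.18 in WT5.

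The clones were compared to see how far the replicates differed in these genes, with 2 libraries per clone and DOX as a covariate, which takes the effect of DOX to be the same in each clone. Of the 74 members, 4 differed between clones (5.41%), where 6.84% of all genes did. They were MRPS16, MRPL11, MRPS18C and MRPL51, and in all 4 the level of WT37 lay below that of the other clones. MRPS16, a small subunit protein, had 99.1 and 110 CPM in WT2 without and with DOX, 91.2 and 88.1 CPM in WT5 and 74.3 and 71.5 CPM in WT37. The clones stood in steps with no overlap and DOX moved each of them little. The difference of WT37 from WT2 was -0.64 ± 0.12 SE on the log2 scale (edgeR, adjusted p = 0.0133). In the annotation 75.8% of the transcript end of MRPS16 lies opposite DNAJC9-AS1, so its count is uncertain.

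MRPL11, which forms the base of the stalk where translation factors bind, had 165 and 145 CPM in WT2, 152 and 146 CPM in WT5 and 128 and 108 CPM in WT37. WT37 lay lowest and WT2 and WT5 overlapped. The difference of WT37 from WT2 was -0.51 ± 0.12 SE (edgeR, adjusted p = 0.0275). MRPL51, a large subunit protein without a bacterial counterpart, had 275 and 275 CPM, 246 and 257 CPM, and 221 and 203 CPM in the 3 clones, again lowest in WT37. Its difference was -0.49 ± 0.11 SE with an adjusted p of 0.0261 in the same edgeR contrast. MRPS18C had 23.3 and 25.8, 26.9 and 18.5, and 13.96 and 15.03 CPM, with a difference of -0.88 ± 0.20 SE and an adjusted p of 0.0281, and its whole transcript end lies opposite ABRAXAS1.

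Between WT37 and WT2, 5 members were lower in WT37 (6.76%, against 2.68% of genes), the 4 above and MRPL54 (-0.53, adjusted p = 0.0495 with edgeR and 0.0732 with the GC offset), and 0 were higher (against 3.15%). The difference lay below 0 for 51 of 74 members (68.9%, against 49.1% of genes), with a median of -0.13 against 0.01. Between WT37 and WT5, MRPL55, a large subunit protein with a bacterial counterpart, was lower (-0.54 ± 0.14 SE, edgeR adjusted p = 0.0472) and MRPS27, a small subunit protein with RNA-binding repeats, was higher (0.51 ± 0.14 SE, adjusted p = 0.0483), each 1.35% of members, against 2.74% and 3.17% of genes. MRPL55 had 93.7 and 104 CPM in WT5 and 79.7 and 64.7 CPM in WT37, and MRPS27 had 207 and 158 CPM in WT5 and 264 and 280 CPM in WT37. Between WT5 and WT2, 0 members were called in either direction (against 0.682% higher and 0.341% lower), with 2 higher and 2 lower at an unadjusted p under 0.05 (2.7% each, against 5.73% and 5.69%). The difference lay below 0 for 41 members between WT5 and WT2 (55.4%, against 49.5% of genes) and for 46 between WT37 and WT5 (62.2%, against 49.4%), with medians of -0.02 and -0.10.

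These calls depended on the fit. DESeq2's likelihood ratio test called 1 member, MRPS16, where 3.76% of all genes were called. Without the DOX covariate edgeR called 0 members, where 2.11% of genes were called. It called 0 members without WT2 (against 3.38% of genes) and 0 without WT37 (against 1.11%). Without WT5 it called 15 of 74 members, where 15% of genes were called. Both libraries of WT37 also had the lowest share of reads mapped to several places, 11.8% and 12.01% against 14.6% to 15.96% in the other clones, and its part in the difference was not tested.

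**Figure D4:**
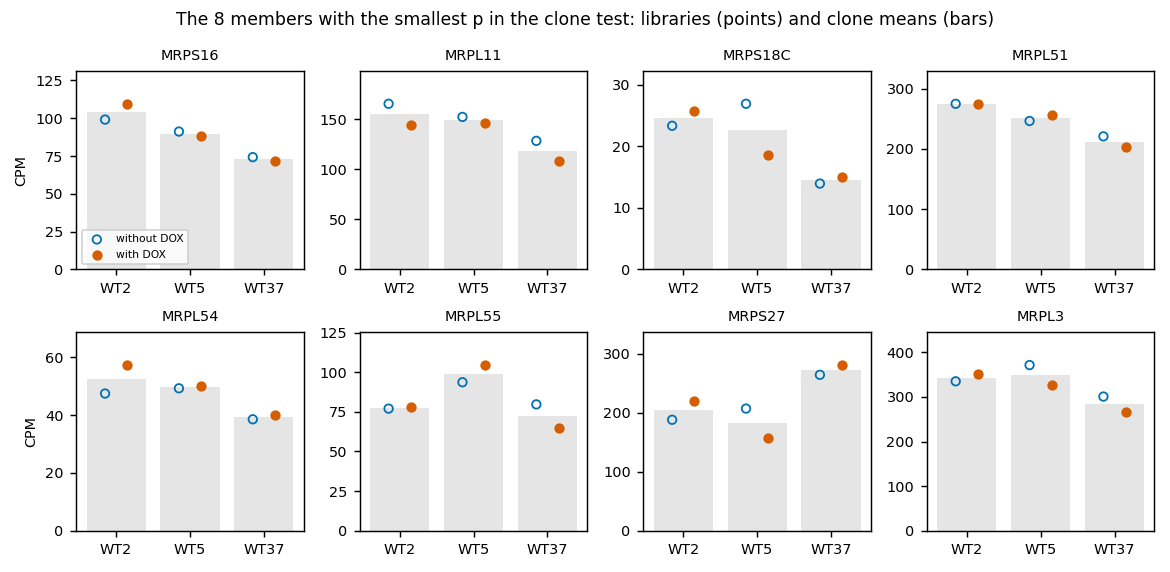
Levels in CPM of the 8 members with the smallest p in the clone test, with 1 point per library (open, without DOX; filled, with DOX) and bars at the mean of the 2 libraries of a clone. In MRPS16, MRPL11, MRPS18C, MRPL51, MRPL3 and MRPL54 both WT37 libraries lie below the 4 others, in MRPS27 they lie above, and in MRPL55 they overlap those of WT2.

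The 3 genes with the MRPS18 symbol, which code for distinct proteins at different places of the ribosome, were measured at very different levels. MRPS18B stood at 436 ± 30.1 CPM without DOX and 401 ± 53.4 CPM with it (SD, n = 3 each), MRPS18C at 21.4 ± 6.70 and 19.8 ± 5.51 CPM, and MRPS18A at 0 to 4 reads per library. MRPS18B was lower with DOX in all 3 clones, with a fold change of -0.17 that did not pass (edgeR with the clone block, adjusted p = 0.464). MRPS30 had a fold change of -0.10 and MRPS36, the gene of neither subunit, of 0.09, neither past the threshold.

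Other genes of the same pathway gave medians on either side of 0 in the blocked fit. Of 28 tested genes of mitoribosome assembly and ribosomal RNA modification, 22 lay below 0 (median -0.08), and 0 were called. The smallest p was that of MRM3, a methyltransferase of the large ribosomal RNA, at 29.6, 31.4 and 37.5 CPM without DOX and 28.1, 24.7 and 21.9 CPM with it. All 3 clones of MRM3 were lower with DOX (-0.44 ± 0.15 SE, edgeR with the clone block, adjusted p = 0.229). Of 17 translation factors 12 lay below 0 (median -0.08), among them the elongation factor TUFM with a fold change of -0.24, and 0 were called. Of 20 genes for mitochondrial aminoacyl-tRNA synthetases and the amidotransferase 10 lay below 0 (median 0.01), with the smallest p for the valine enzyme VARS2 (-0.36, adjusted p = 0.390). The 5 mitoribosomal proteins with other symbols, such as DAP3 and PTCD3, had a median of 0.00108, with the smallest p for PTCD3 (-0.10, adjusted p = 0.721).

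Genes of mitochondrial DNA upkeep and transcription had a median of -0.17 with 11 of 15 below 0, chaperones and proteases -0.09 with 11 of 13, and general markers of mitochondrial mass -0.08 with 11 of 15, all with 0 called. The smallest p was that of the elongation factor TEFM (-0.66 ± 0.31 SE, at 2.55 to 5.02 CPM) in the first list, of the chaperonin HSPE1 (-0.22) in the second and of the import receptor TOMM70 (-0.24) in the third. The nuclear genes of respiratory chain and ATP synthase subunits had a median of -0.01 with 39 of 72 below 0. Of these, UQCRFS1, the iron-sulfur protein of complex III, fell by 0.49 ± 0.09 SE (edgeR with the clone block, adjusted p = 0.0305), from 217, 202 and 304 CPM to 176, 134 and 220 CPM. It did not pass without the block (adjusted p = 0.700 with edgeR). Cytosolic ribosomal proteins had a median of -0.06 with 67 of 82 below 0, and genes of MYC and nucleolar ribosome biogenesis -0.14 with 17 of 20, with 0 called in either, and FAU (-0.25) and NOLC1 (-0.31) had the smallest p of each.

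Stress genes controlled by ATF4, which respond when mitochondrial translation is disturbed, had a median of 0.17 with 10 of 14 above 0. The blocked fit called 1 of the 14, where 1.3% of all genes were called. The list did not move alike in the clones. Its TMM-scaled median ratio was 0.02, 0.34 and 0.07. Its summed level went from 1.65 to 1.51 per 1000 reads with DOX in WT2, from 2.02 to 2.40 in WT5 and from 2.27 to 2.20 in WT37. Of its 14 genes, 7 differed between clones (50%, against 6.84% of all genes). The called gene was PHGDH, the first enzyme of serine synthesis, with 59.0, 93.2 and 84.0 CPM without DOX and 86.5, 152 and 152 CPM with DOX. All clones were higher with DOX and the fold change was 0.67 ± 0.10 SE (edgeR with the clone block, adjusted p = 0.0118, and 0.634 without the block). Among the gene rows used here 0 lay on the mitochondrial chromosome, so transcripts of the ribosomal RNA partners were not analysed here. Among nuclear copies of mitochondrial genes 7 of 8 lay above 0 (median 0.18). MTATP6P1, a copy of the ATP6 gene whose reads may stem from other near-identical copies, rose by 1.199 ± 0.11 SE in the blocked edgeR fit (adjusted p = 0.000613, and 0.693 without the block). Over all genes tested the median was 0.01.

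**Figure D5:**
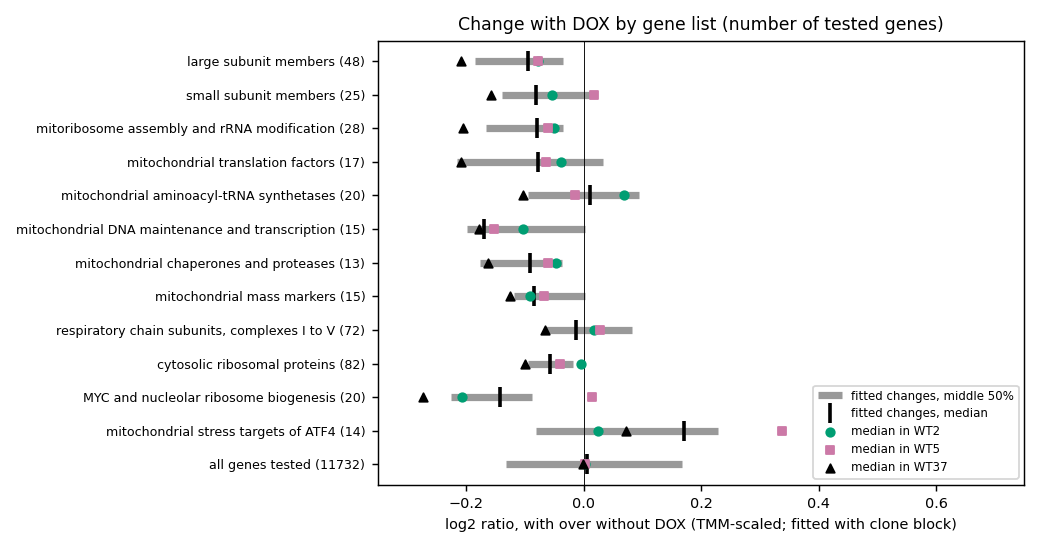
Change with DOX for members of the large and small subunit and for other gene lists, as log2 ratio. Grey bars give the middle 50% and black ticks the median of the fitted values with the clone as block, and points give the median of TMM-scaled ratios in each clone. The medians of most mitochondrial lists lie between -0.17 and 0.01, that of ATF4 targets lies at 0.17 and that of all genes at 0.01.

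ZEB2 itself had 9 reads in WT2 without DOX and 20 with it, 5 and 9 in WT5, and 3 and 22 in WT37, and whether the introduced gene carries the transcript end that is counted is not given. The summed level of 10 epithelial markers was 6937 to 8414 CPM without DOX and 4660 to 5918 CPM with DOX. In the order WT2, WT5 and WT37, the median log2 ratio in CPM of the 9 tested epithelial markers was -0.71, -0.19 and -0.89, beside -0.03, -0.02 and -0.12 for the mitochondrial ribosomal proteins. The blocked edgeR fit called 3 of these 9 markers, where 1.3% of all genes were called. The keratin KRT18 (-0.69, adjusted p = 0.0135) and the adhesion molecule EPCAM (-0.73, adjusted p = 0.0230) fell, and the intestinal transcription factor CDX2 rose (0.42, adjusted p = 0.0464), in all 3 clones each. The 7 mesenchymal markers summed to 16.2 to 29.6 CPM without and 17.2 to 54.3 CPM with DOX, with TWIST1 at 0 in all libraries. Of the 2 tested, S100A4, a calcium-binding protein, rose from 6.62, 8.09 and 14.1 CPM to 10.9, 17.1 and 38.1 CPM (1.09 ± 0.18 SE, edgeR with the clone block, adjusted p = 0.0163). Without the block none of these 4 markers passed in edgeR (adjusted p = 0.605 to 0.727). The other tested mesenchymal marker went the other way. It lay below 0 in the blocked fit without being called, and was lower in CPM with DOX in all 3 clones. Markers of blood, endothelium and fibroblasts (8 genes) summed to 4.78 to 10.9 and 4.81 to 11.9 CPM, with PECAM1 at 0, and the only one tested was CD14 (0.08, adjusted p = 0.913). The part of these marker levels in the member values was not tested.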

How the data were processed

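Messenger RNA of 6 DLD-1 libraries was sequenced from transcript ends with a QuantSeq FWD kit, per the labels' protocols. The authors deposited raw read counts per Ensembl gene, whole numbers without normalization. The submitters' processing notes name GRCh38 and DESeq2, and for the aligner, counting program and annotation nothing is given in the sources used here. Symbols came from an identifier table and GENCODE, which also gave positions and transcript ends on GRCh38. The 4 rows of reads given to no gene were left out. Groups and clones were taken from the sample titles.

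The counts were tested in R 4.3.3 with edgeR 4.0.16 (quasi-likelihood test with robust fitting, TMM scaling, filterByExpr, 11732 genes kept, Benjamini-Hochberg adjusted p under 0.05), and the scripts were tested on simulated data. Standard errors are approximate, taken from the fold change and the F statistic. limma-voom 3.58.1, DESeq2 1.42.0, other filters and scalings, single clones or libraries left out, and a GC offset were alternatives. After the group means were taken out, the libraries of a clone correlated across 11732 genes (WT2 r = 0.49, WT5 r = 0.28, WT37 r = 0.53), so the clones, named alike in both conditions by the labels, pair the samples. The biological coefficient of variation was 17.9% without and 10.9% with the block. No 2 libraries of a group had counts within sampling noise of each other.

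The members, gene lists and named genes were chosen with earlier results of these data known. Members named in the text are those called in any DOX fit of the main designs, the 10 with the smallest p between clones, the 6 largest changes in each direction with the block, the 4 highest and 4 lowest levels of each subunit, and 8 genes with a special role. Named outside this rule, after their values were seen, were MRPL36 and MRPS15 (no overlap between groups, or lower in all clones), MRPL9, MRPL46 and MRPS25 (low or overlapped), and in the closing section members with opposite directions in different clones or with a neighbouring start. Of each other list, the called genes or the gene with the smallest p were named, and DAP3 as an example.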

Additional observations from a re-analysis of the deposited data

Results flagged for a closer look

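For 11 of the 74 tested members (14.9%, against 8.72% of all genes tested) the change with DOX had opposite directions in different clones beyond counting error, with 95% counting intervals of the log2 ratio in CPM wholly above 0 in 1 clone and wholly below 0 in another. Counting intervals are narrower at high levels, and the members have a higher median level than all genes. The intervals also leave out the trend with GC content of the transcript end. Over the members, Spearman's rho of GC content with the ratio was -0.35 in WT2 and 0.44 in WT5. The part of GC content in these 11 was not tested. The differences between clones were not tested, since each clone has 1 library per condition. WT5 went against WT2 or WT37 in 10 of the 11, and MRPL34 is the exception. Lower in WT5 and higher elsewhere were MRPL19 (-0.41 in WT5, 0.32 in WT2), MRPL32 (-0.56 in WT5, 0.29 in WT37), MRPL33 (-0.22 in WT5, 0.37 in WT2, 0.42 in WT37), MRPL39 (-0.42 in WT5, 0.62 in WT37) and MRPS27 (-0.39 in WT5, 0.23 in WT2). Higher in WT5 and lower elsewhere were MRPL18 (0.24 in WT5, -0.19 in WT2), MRPL28 (0.70 in WT5, -0.32 in WT2), MRPL30 (0.36 in WT5, -0.23 in WT2) and MRPS26 (0.21 in WT5, -0.31 in WT2, -0.18 in WT37). MRPL1 was higher in WT2 (0.26) and lower in WT5 (-0.22) and WT37 (-0.18), and MRPL34 was higher in WT2 (0.15) and lower in WT37 (-0.17).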

How the results depend on the processing

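Alternatives with the GC offset, and the block combined with other scalings, filters or tools, were chosen after seeing the data. The clones pair the samples, and with the replicate block the DOX comparison called 152 genes and 0 members. Genes called with DOX were 206 without a filter and 57 with DESeq2, and with the block 155 (size factors), 518 (no filter), 140 (at least 10 counts), 133 (DESeq2), 185 (limma-voom) and 230 (GC offset). Without 1 clone or library the counts were 0 to 743 genes and 0 to 3 members. The 3 members came from the blocked fit without WT5, where 6.25% of genes were called. The clone test called 1783 genes (7.55%) and 13 of 78 members without a filter, and 441 genes (3.76%) and 1 of 74 members with DESeq2. It called 248 genes (2.11%) and 0 members without the DOX covariate, and 1236 genes (10.6%) and 7 of 74 members with the GC offset. Without 1 clone it called 129 to 1788 genes. Members called there were 0 without WT2 (3.38% of genes), 0 without WT37 (1.11%) and 15 of 74 without WT5 (15%). Between pairs of clones, members called are given with the percent of all genes called in brackets. Without a filter they were 1 (1.46%) for WT5 and WT2, 8 (5.26%) for WT37 and WT2 and 9 (5.48%) for WT37 and WT5. Without the covariate they were 1 (1.63%) for WT37 and WT2 and 0 (1.54%) for WT37 and WT5. With the GC offset they were 8 (8.83%) for WT37 and WT5. For WT37 and WT2 the offset ended the call of MRPL54 (edgeR adjusted p = 0.0732). Leaving out WT5 gave 15 (15%) for WT37 and WT2, and leaving out WT2 gave 0 (3.38%) for WT37 and WT5. Without the 10 most abundant genes the summed level was 8.72, 8.75 and 8.77 per 1000 without DOX and 8.56, 8.59 and 8.15 with it, since the denominator is smaller. The members' median fold change with DOX stayed below 0 in every alternative run, from -0.12 to -0.02. Fold changes of 39 of the 74 tested members took the other sign in at least 1 alternative, among them 15 of the 30 tested members named by rule, all from values that did not pass. Values follow for these 15. MRPS16 went to 0.0031 without a filter and MRPL12 to -0.054 with the GC offset and to -0.053 with the GC offset and block. Without 1 clone or library the ranges were MRPS16 -0.21 to 0.17, MRPS18C -0.41 to 0.087, MRPL51 -0.17 to 0.11, MRPL3 -0.24 to 0.020, MRPL54 -0.058 to 0.26, MRPL55 -0.27 to 0.14, MRPS27 -0.21 to 0.13, MRPL17 -0.15 to 0.069, MRPL18 -0.21 to 0.13, MRPL28 -0.18 to 0.46, MRPS28 -0.033 to 0.30, MRPL33 -0.012 to 0.34, MRPL41 -0.059 to 0.34, MRPS11 -0.071 to 0.16 and MRPL12 -0.066 to 0.15. The cause of these changes was not tested. Depth limits the low members most, such as MRPL23 with 31 to 55 reads per library.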

Other observations

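Many members share a start region with a gene on the other strand. In the GENCODE annotation 17 of the 78 members (21.8%) had a protein-coding neighbour that starts within 1000 bases upstream in the opposite direction, against 10.3% of tested coding genes and 7.38% of all coding genes. MRPL46 and MRPS11 form such a pair with each other, 34 bases apart. MRPL36 pairs with NDUFS6 (34 bases) and MRPL47 with NDUFB5 (36 bases), and both partners are subunits of respiratory complex I. MRPL18 pairs with TCP1, a subunit of the cytosolic chaperonin, and MRPL57 with SKA3, a kinetochore protein. These 17 members form 16 pairs. In 12 pairs both genes were tested, and in 8 both fold changes with DOX lay below 0 in the blocked fit. The median of the 11 tested partners that are no members was -0.10 and 0 partners were called by edgeR with the block. In the MRPL47 pair the values had opposite signs, -0.20 for the member and 0.17 for NDUFB5. In the MRPL36 pair they were -0.21 and -0.02. SLC7A7, the partner of MRPL52 and an amino acid transporter subunit, differed between clones (edgeR, adjusted p = 0.000202), whereas MRPL52 had an adjusted p of 0.149 in that test.

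Fold changes in the blocked fit were set beside the promoter strings. The median was -0.08 for 26 tested members with the ETS string and -0.09 for 39 without it, -0.12 for 10 with the YY1 string and -0.08 for 55 without, and -0.11 for 8 with the NRF1 string and -0.08 for 57 without. It was -0.14 for 6 with the MYC string and -0.08 for 59 without, the widest gap of the 6 strings, and -0.08 for 38 with the SP1 string and -0.10 for 27 without. For the E-box bound by ZEB proteins it was -0.09 for 11 members with it and -0.08 for 54 without. Among all tested genes with a promoter entry the medians with and without the E-box were -0.01 and 0.01. Differences between these medians were not tested.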
